A study of Mus musculus with 10 samples.

Results

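Tumors labelled extra axial, by the usual meaning of the term inside the skull but outside the brain tissue, were compared with tumors labelled extra cranial, outside the skull, in mice given YAP1 oncogenes. The comparison takes in 9 of the 10 libraries of the series, chosen by their labelled source region. The 3 extra axial libraries are replicates 2 and 6 of YAP1-MAML2-v2 with replicate 1 of NLS-2SA-YAP1. The 6 extra cranial libraries are replicates 1, 3, 4 and 5 of YAP1-MAML2-v2 with replicates 2 and 3 of NLS-2SA-YAP1. Every tumor came from a chicken DF1 fibroblast injection that delivered an avian RCAS virus under the arachnoid of newborn Cdkn2a null mice. These mice expressed tv-a, the receptor that the virus needs, from a Nestin promoter, so infection is limited to cells in which that promoter was active. Both sites carry the same host genotype, and no normal tissue of either site is among the libraries. Neither the ages at collection nor the way a region was assigned is stated in the labels. The labels name DF1 as the cell type, which is the virus-producing line, whereas the values are for genes of the mouse host. The labels do not say whether tumors of a group came from separate litters or days, so p-values measure only the spread between these tumors.

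YAP1 is a coactivator at the end of the Hippo pathway, which restrains growth. It enters the nucleus when that pathway is off and binds TEAD factors at genes of adhesion, matrix and proliferation. YAP1-MAML2-v2 joins YAP1 to the Notch coactivator MAML2, and NLS-2SA-YAP1 is, by its name, a form with a nuclear localization signal and changed serines. The meninges, where the virus was placed, are membranes of fibroblasts and barrier cells between brain and skull. Outside the skull a tumor meets muscle, fat, skin and peripheral nerve, and inside it meets meninges, brain surface and bone. Markers of these neighbours and of growth, oxygen response, matrix and immune programs were therefore read at both sites.

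The 9 libraries held totals between 28001143 and 43039765 estimated counts, a 1.54-fold range. They did not group by site. Pearson's r of log2 CPM (counts scaled to a common library total) over tested genes had a median of 0.819 in the 18 pairs from the same site (0.77 to 0.904) and 0.833 in the 18 pairs from different sites (0.755 to 0.911). The closest pair of all, at 0.911, crosses the sites: YAP1-MAML2-v2 replicate 5 (extra cranial) and replicate 6 (extra axial). The first principal component held 23.5% of the variance and the second 22.2%, and extra axial libraries lie on both sides of 0 on each. The Y-linked genes DDX3Y, UTY and KDM5D were listed at 0 in 1 library of each site, extra axial NLS-2SA-YAP1 replicate 1 and extra cranial YAP1-MAML2-v2 replicate 1. DDX3Y stood at 34.7 to 58.4 CPM in the other 7 libraries. The sex of the animals is not labelled, and its part in the site differences was not tested.

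**Figure D1:**
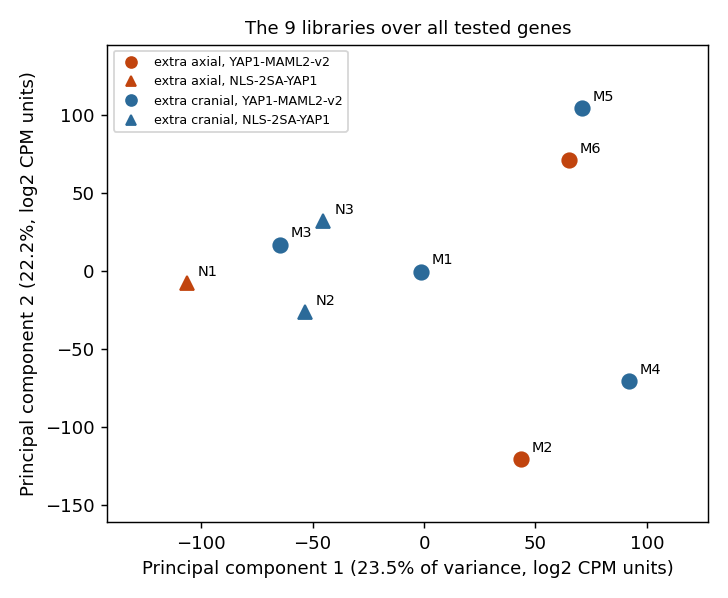
Principal components of log2 CPM over all tested genes, the first (23.5% of variance) against the second (22.2%); each point is 1 library, colour gives the site and shape the construct, with M for YAP1-MAML2-v2, N for NLS-2SA-YAP1 and the replicate number beside it. The extra axial libraries M2, M6 and N1 lie far apart, and M6 lies beside the extra cranial M5.

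No gene passed an adjusted p of 0.05 between the sites in edgeR's quasi-likelihood test with construct as a covariate (0 of 13487 genes, 0%). The lowest adjusted p was 0.797, for TVP23B. At an unadjusted p under 0.05, 133 genes (0.986%) were higher and 271 (2.01%) lower in extra axial tumors. These 2 counts ran from 74 to 247 and from 163 to 356 without single libraries. The lowest of each came without extra cranial NLS-2SA-YAP1 replicate 3 and the highest without extra axial NLS-2SA-YAP1 replicate 1, and 210 genes were higher without extra axial YAP1-MAML2-v2 replicate 6. Without that replicate 6 edgeR called NECAB1 lower (adjusted p = 0.00911), and without replicate 2 it called TRIM38 higher (adjusted p = 0.000109), both with a value of 0 in the libraries kept. The fitted log2 fold change was above 0 for 6672 genes (49.5%), and its median over all genes was -0.01. In 51 genes (0.378%) every extra axial library was above every extra cranial one, and in 69 (0.512%) every one was below. DESeq2, on the same counts and terms, called 17 of 13241 genes, 16 lower (0.121%) and 1 higher (0.00755%). Among these, 8 had a value of 0 or 1 in some library, where the deposited values carry no readable fold, and HS3ST1 was below the level set for naming. The other 8, all lower, were TVP23B, TFPI, FAM20A, MASP1, ADM, CYP26B1, ANGPT2 and TIMP3. Below, the 3 values for the extra axial tumors are always in the order YAP1-MAML2-v2 replicate 2, replicate 6 and NLS-2SA-YAP1 replicate 1, differences are log2 extra axial minus extra cranial from edgeR, and none passes that test's threshold. In bulk tissue, fewer cells of a type and less RNA per cell cannot be told apart.

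The gene with the smallest p, TVP23B, was lower in extra axial tumors. It is given here with FAM20A, TFPI, MASP1 and CYP26B1, which DESeq2 also called lower. These 5 are not the 5 of smallest p, since ADM and ANGPT2, described below, had smaller edgeR p than MASP1 and CYP26B1. They encode Golgi proteins, secreted regulators of clotting and complement and an enzyme that clears retinoic acid. TVP23B stood at 12.8, 12.3 and 10.7 CPM in the extra axial libraries and at 36.7 to 105 (median 59.1) CPM in the extra cranial ones. TVP23B, a membrane protein of the trans-Golgi (chromosome 11, 62879455 to 62916780 in mm10), thus had every extra axial level below every extra cranial one, and its difference was -2.40 ± 0.36 (SE), with a DESeq2 adjusted p of 2.84e-07. FAM20A stood at 59.4, 61.3 and 23.3 CPM in the extra axial libraries and at 121 to 322 (median 266) CPM in the extra cranial ones. FAM20A, a Golgi pseudokinase that activates the secretory kinase FAM20C (chromosome 11, 109669749 to 109722279), did not overlap between sites, and the difference was -2.45 ± 0.48 (SE). It was larger within NLS-2SA-YAP1 (-3.66) than within YAP1-MAML2-v2 (-1.88), a contrast that did not pass the interaction test (edgeR adjusted p = 0.692). TFPI stood at 1.76, 3.16 and 0.459 CPM in the extra axial libraries and at 4.12 to 74.5 (median 28.8) CPM in the extra cranial ones. TFPI, which blocks the start of blood clotting by tissue factor (chromosome 2, 84432855 to 84476775), differed by -4.28 ± 0.84 (SE) with no overlap. MASP1 stood at 0.499, 0.847 and 0.145 CPM in the extra axial libraries and at 2.27 to 32.2 (median 8.70) CPM in the extra cranial ones. MASP1 is a protease of the lectin branch of complement, and its groups did not overlap at a difference of -4.87 ± 1.23 (SE). CYP26B1 stood at 1.55, 1.55 and 0.411 CPM in the extra axial libraries and at 3.41 to 17.9 (median 10.95) CPM in the extra cranial ones. This enzyme degrades retinoic acid, which the meninges make, and its levels did not overlap (difference -3.19 ± 0.86 (SE)). Without each library in turn, the differences of these 5 genes stayed between -5.38 and -1.98.

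Other lower genes act in metal binding, TGF-beta feedback and protein turnover. MT2A stood at 19.3, 17.2 and 8.99 CPM in the extra axial libraries and at 28.7 to 64.1 (median 37.4) CPM in the extra cranial ones. This metallothionein binds zinc and copper, and its family has near copies among which reads can be split. Its groups did not overlap (difference -1.54 ± 0.38 (SE)). SMAD7 stood at 21.9, 12.8 and 23.8 CPM in the extra axial libraries and at 29.00 to 102 (median 50.9) CPM in the extra cranial ones. SMAD7 is the inhibitory SMAD that TGF-beta and BMP signals induce, and it too did not overlap, at -1.47 ± 0.37 (SE). FAM63B stood at 34.5, 63.4 and 54.9 CPM in the extra axial libraries and at 86.6 to 275 (median 142) CPM in the extra cranial ones. FAM63B, a deubiquitinase, did not overlap and differed by -1.61 ± 0.42 (SE). TIMP3 stood at 0.972, 0.423 and 11.2 CPM in the extra axial libraries and at 1.92 to 42.5 (median 17.7) CPM in the extra cranial ones. TIMP3, a matrix-bound inhibitor of metalloproteases, overlapped between sites (-3.20 ± 1.00 (SE)), since extra cranial YAP1-MAML2-v2 replicate 5 was at 1.92 CPM. TMX3, an endoplasmic reticulum disulfide isomerase, overlapped as well (-1.33 ± 0.33 (SE)), as did SUSD6 (-1.24 ± 0.32 (SE)). The 12 lower genes fixed by smallest p had to keep their sign in each construct and without each library, so that stability is a condition of their choice.

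The 12 leading higher genes encode proteins of varied roles, among them a receptor, a mitochondrial ribosome protein and RNA-binding and cytoskeletal proteins. LRP3 stood at 56.1, 37.8 and 25.96 CPM in the extra axial libraries and at 10.4 to 18.8 (median 14.9) CPM in the extra cranial ones. LRP3, of the LDL receptor family (chromosome 7, 35200027 to 35215498), did not overlap between sites and differed by 1.39 ± 0.35 (SE). MRPL34 stood at 32.96, 28.8 and 40.2 CPM in the extra axial libraries and at 11.6 to 18.9 (median 15.1) CPM in the extra cranial ones. This protein of the mitochondrial ribosome did not overlap either, and its difference was 1.16 ± 0.30 (SE), close in both constructs (1.15 within YAP1-MAML2-v2 and 1.24 within NLS-2SA-YAP1). ZNF318 stood at 71.96, 82.6 and 53.4 CPM in the extra axial libraries and at 30.5 to 43.6 (median 38.6) CPM in the extra cranial ones. This zinc finger protein did not overlap, at 0.87 ± 0.27 (SE). CAPN6 stood at 42.8, 87.03 and 49.8 CPM in the extra axial libraries and at 0.377 to 33.4 (median 1.78) CPM in the extra cranial ones. CAPN6, a calpain without protease activity that binds microtubules (chromosome X, 143802231 to 143827414), had the largest of the 12 differences, 3.75 ± 1.16 (SE). Its groups did not overlap, though extra cranial YAP1-MAML2-v2 replicate 3 reached 33.4 CPM, and without single libraries the difference ran from 2.34 to 4.54. PCBP1 stood at 708, 249.8 and 264 CPM in the extra axial libraries and at 98.5 to 245 (median 113) CPM in the extra cranial ones. PCBP1, an intronless gene for an RNA-binding protein with related copies, was separated from the extra cranial range by a small margin (1.39 ± 0.42 (SE)), and its extra axial spread rests on replicate 2. TSC22D4 also did not overlap (1.16 ± 0.36 (SE)), but with the mean level of skeletal muscle genes as a covariate its difference was 0.66. GAS2, which links actin and microtubules, stood at 87.5, 5.36 and 8.56 CPM against 1.31 to 8.89 (median 3.34), so most of its difference of 2.78 ± 0.73 (SE) comes from replicate 2, without which it was 1.07. The other 5 overlapped, namely the kainate receptor subunit GRIK5, the ubiquitin ligase TRIM6, the phosphatase CPPED1, SRBD1 and SBF1, with differences from 0.91 to 2.19.

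**Figure D2:**
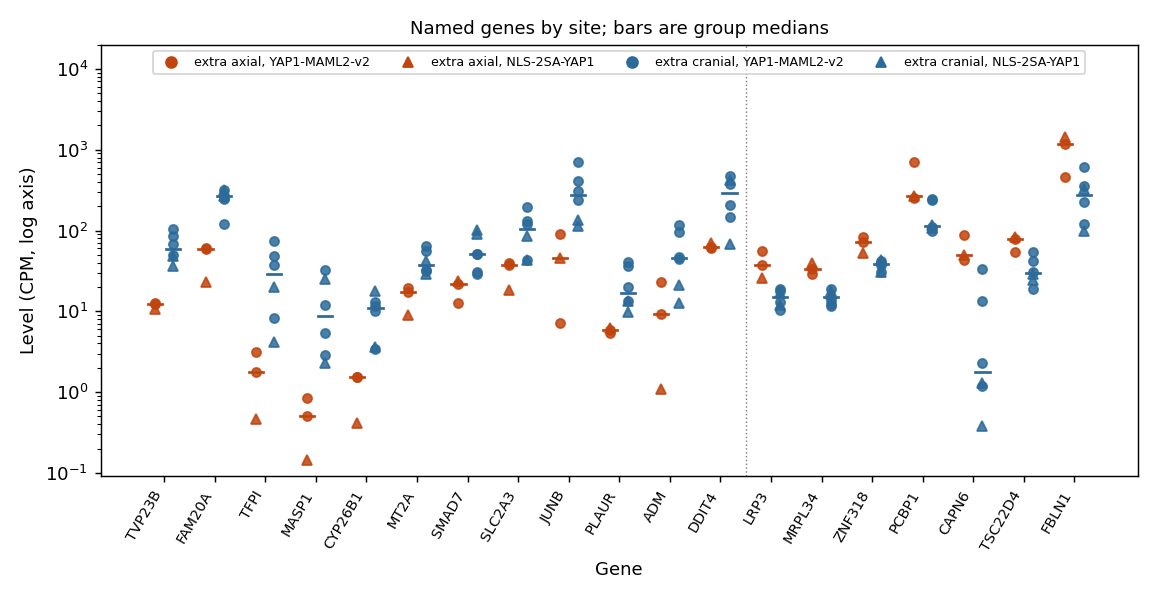
Level (CPM, log axis) of 19 named genes in each of the 9 libraries; red is extra axial, blue extra cranial, circles are YAP1-MAML2-v2, triangles NLS-2SA-YAP1, and bars are group medians. The 12 genes left of the dotted line have lower extra axial medians, and the 7 to the right higher ones. TVP23B shows a clear gap, with extra axial levels of 10.7 to 12.8 CPM below the extra cranial minimum of 36.7 CPM.

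Most genes induced by low oxygen and most genes of glycolysis had lower fitted levels in extra axial tumors, none past the adjusted threshold of edgeR. HIF factors, stabilised when oxygen falls, bind the core ACGTG and drive angiogenic signals, glucose uptake and glycolysis. The windows below show this core, which capitals mark on either strand, in promoters of a hypoxia gene and of 2 glycolysis genes, as RefSeq windows of GRCm38.p6 from 250 bases before to 50 bases after the annotated start.
DDIT4 (chr10:59951721-59952020, minus strand): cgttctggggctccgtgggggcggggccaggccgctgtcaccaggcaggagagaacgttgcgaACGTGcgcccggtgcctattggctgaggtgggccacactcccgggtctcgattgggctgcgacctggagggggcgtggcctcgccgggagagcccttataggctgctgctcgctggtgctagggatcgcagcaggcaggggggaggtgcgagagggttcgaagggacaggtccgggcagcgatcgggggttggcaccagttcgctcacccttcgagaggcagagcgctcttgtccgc
LDHA (chr7:46845554-46845853, plus strand): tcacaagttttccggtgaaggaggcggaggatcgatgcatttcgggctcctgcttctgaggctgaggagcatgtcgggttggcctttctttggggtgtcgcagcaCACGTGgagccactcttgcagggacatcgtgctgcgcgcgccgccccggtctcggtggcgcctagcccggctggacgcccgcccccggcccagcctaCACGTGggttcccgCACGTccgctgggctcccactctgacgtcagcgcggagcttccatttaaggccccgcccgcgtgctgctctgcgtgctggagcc
PGAM1 (chr19:41911621-41911920, plus strand): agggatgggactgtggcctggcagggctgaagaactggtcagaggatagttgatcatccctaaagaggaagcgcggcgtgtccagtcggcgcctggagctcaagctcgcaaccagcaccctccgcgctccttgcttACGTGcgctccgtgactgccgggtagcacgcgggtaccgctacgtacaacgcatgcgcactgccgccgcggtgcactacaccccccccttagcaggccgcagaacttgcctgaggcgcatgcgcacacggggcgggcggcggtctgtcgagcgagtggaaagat
RefSeq gives Ldha a second window (chr7:46846832-46847131), which holds 0 matches and is not printed. The printed Ldha window holds 5 matches, some of them the 2 strands of 1 palindrome, and the other two windows hold 1 each. Among glycolysis genes, 17 of 18 matched a promoter and 13 of them (76.5%) held the core, as did 5886 of the 27025 genes of the promoter table (21.8%). Only 15 of the 21 hypoxia targets matched, too few for a share. A match is a sequence description and not a bound site.

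Of the hypoxia targets, 4 of 21 tested members were above 0 and 17 below, with a median difference of -0.82 against -0.01 over all genes, and 1 above and 5 below at an unadjusted edgeR p under 0.05. Over all genes, 0.986% were above and 2.01% below at such a p. ADM stood at 9.33, 22.9 and 1.09 CPM in the extra axial libraries and at 12.8 to 116 (median 45.7) CPM in the extra cranial ones. Adrenomedullin is a vessel-dilating peptide, and its only overlap is between extra axial replicate 6 and both NLS-2SA-YAP1 extra cranial libraries (-2.72 ± 0.58 (SE); DESeq2 adjusted p = 0.000889). SLC2A3 stood at 39.2, 37.5 and 18.4 CPM in the extra axial libraries and at 42.6 to 194 (median 103) CPM in the extra cranial ones. This neuronal-type glucose transporter did not overlap and differed by -1.72 ± 0.47 (SE). DDIT4 stood at 61.4, 61.9 and 70.6 CPM in the extra axial libraries and at 68.3 to 472 (median 290.3) CPM in the extra cranial ones. DDIT4, an inhibitor of mTORC1 whose promoter is printed above, was nearly constant in the extra axial tumors (-2.12 ± 0.62 (SE)). It overlapped only with extra cranial NLS-2SA-YAP1 replicate 2, at 68.3 CPM. ERO1L, an oxidase of protein folding, differed by -1.46 ± 0.46 (SE), and VEGFA, the chief vessel growth factor, by -1.30 ± 0.69 (SE). Within NLS-2SA-YAP1, VEGFA went the other way (0.37). The member higher at an unadjusted p under 0.05 was the carbonic anhydrase CA12, named here after its values were seen, which held a value of 0 or 1. CA9, its relative and a hypoxia marker, was at 0.526, 6.12 and 0.822 CPM against 0.0252 to 6.77 (median 1.35) and did not separate the sites. The library mean of the list was 5.13, 5.43 and 4.19 in the extra axial libraries and 3.92 to 6.62 in the extra cranial ones, with extra cranial NLS-2SA-YAP1 replicate 2 the lowest of all.

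Of the glycolysis genes, 1 of 18 tested members were above 0 and 17 below (median -0.66, and -0.85 to -0.51 when single libraries were left out). Within constructs the median was -0.765 for YAP1-MAML2-v2 and -0.17 for NLS-2SA-YAP1. The list's mean log2 CPM was 6.63, 6.975 and 6.45 in the extra axial libraries and 5.81 to 8.21 in the extra cranial ones. The sites thus overlapped, with extra cranial NLS-2SA-YAP1 replicate 2 the lowest of all. SLC2A1, the basal glucose transporter and also a marker of brain endothelium, stood at 15.5, 22.2 and 11.9 CPM against 4.80 to 204 (median 91.9) (-2.16 ± 0.72 (SE)). In every extra cranial library but NLS-2SA-YAP1 replicate 2 (4.80 CPM), its level was above that of every extra axial one. The lactate exporter SLC16A3 followed with 21.8, 16.2 and 5.75 against 3.67 to 70.9 (median 38.5) CPM (-1.43 ± 0.57 (SE)). PGAM1 differed by -1.24 ± 0.56 (SE) and LDHA, which makes lactate, by -0.87 ± 0.42 (SE). Respiratory chain genes did not mirror this, with 14 of 21 above 0 and a median of 0.14. Among vessel genes, ANGPT2, an antagonist ligand of the endothelial receptor TEK, stood at 23.4, 26.05 and 2.73 CPM against 4.14 to 91.9 (median 66.98) (-1.59 ± 0.37 (SE); DESeq2 adjusted p = 0.0438), and FLT1, a VEGF receptor, differed by -1.23 ± 0.44 (SE). ANGPT2 was low in the NLS-2SA-YAP1 tumors of both sites. Within YAP1-MAML2-v2, where the extra axial ANGPT2 levels were 23.4 and 26.0 CPM, the 4 extra cranial ones were all higher, and within NLS-2SA-YAP1 both extra cranial ones were higher as well. Endothelial markers as a whole did not share this: 9 of 16 tested members were above 0 and 7 below, and the markers PECAM1 (40.6, 77.7 and 6.82 CPM against 25.04 to 78.3 (median 32.8)) and CDH5 overlapped widely. SLC7A5, a brain endothelial amino acid transporter, was at 15.7, 7.84 and 4.62 CPM against 6.45 to 77.03 (median 33.8) (-1.70 ± 0.62 (SE)).

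AP-1 subunits, transcription factors that growth factors and stress induce within minutes, had mostly negative fitted differences: 2 of 12 tested members were above 0 and 10 below, with a median of -0.71. At an unadjusted p under 0.05, 2 of them were lower, as were 2.01% of all genes. The mean log2 CPM of the subunits was 3.78, 3.48 and 4.73 in the extra axial libraries and 4.43 to 5.68 in the extra cranial ones, an overlap through extra axial NLS-2SA-YAP1 replicate 1. JUNB stood at 7.15, 89.5 and 45.7 CPM in the extra axial libraries and at 115 to 706 (median 274) CPM in the extra cranial ones. JUNB was the only one of the 12 whose groups did not overlap (-2.49 ± 0.80 (SE); edgeR adjusted p = 1.00), where 0.512% of all genes were lower without overlap. FOSL2 stood at 138, 89.7 and 57.3 CPM in the extra axial libraries and at 67.7 to 513 (median 243) CPM in the extra cranial ones. FOSL2 overlapped in the NLS-2SA-YAP1 extra cranial tumors (-1.35 ± 0.44 (SE)). FOS and JUN, the founding subunits, showed no such order: FOS was at 281, 9.37 and 1577 CPM against 44.5 to 789 (median 521), and JUN at 163, 68.6 and 604 against 75.1 to 888 (median 199), each with an NLS-2SA-YAP1 extra axial level among the highest. Without that library the list's median was -1.61. Of the other immediate early genes, 13 of 24 tested members were above 0 and 11 below (median 0.14), while 5 of them were lower at an unadjusted p under 0.05 and none higher. Over all genes, 2.01% were lower and 0.986% higher at such a p. KLF2 and KLF4, zinc finger factors of vessel and epithelial cells, differed by -2.09 ± 0.81 (SE) and -2.19 ± 0.85 (SE). IER2 differed by -1.15 ± 0.45 (SE) and EGR2, also a Schwann cell factor, by -2.25 ± 0.93 (SE).

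Genes that remodel matrix had mostly lower fitted levels in extra axial tumors, while genes of the matrix itself were divided. Among proteases and their inhibitors, 1 of 19 tested members were above 0 and 18 below, with a median of -0.69 and -0.89 to -0.32 when single libraries were left out. The list's mean log2 CPM was 4.13, 3.85 and 3.61 in the extra axial libraries and 4.37 to 5.57 in the extra cranial ones, so the sites did not overlap. The list is 1 of 39 that were read, and this separation was not tested. PLAUR stood at 5.36, 5.84 and 6.26 CPM in the extra axial libraries and at 9.72 to 40.5 (median 16.7) CPM in the extra cranial ones. PLAUR, the receptor of urokinase, was nearly equal in the 3 extra axial tumors and below every extra cranial one (-1.78 ± 0.53 (SE)). With the mean level of skeletal muscle genes as a covariate the list's median was -0.33, and 7 of the 19 members were above 0. The gelatinase MMP2 and the membrane protease MMP14 overlapped widely (706, 486 and 53.97 against 86.00 to 1190.2 (median 342) CPM, and 244, 204 and 217 against 81.6 to 703 (median 329.5) CPM).

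Matrix proteins and cross-linkers were divided: 8 of 26 tested members were above 0 and 18 below (median -0.45). LOX, which cross-links collagen, was at 33.2, 26.3 and 15.03 CPM against 12.7 to 186 (median 111) (-2.20 ± 0.72 (SE)), and fibronectin, FN1, at 4977, 4265 and 2293 CPM against 2308 to 24421 (median 11663) (-1.72 ± 0.74 (SE)). LOX overlapped only through extra cranial YAP1-MAML2-v2 replicate 4, and FN1 through that tumor and NLS-2SA-YAP1 replicate 2. FBLN2 differed by -2.30 ± 0.87 (SE), whereas its relative FBLN1 went the other way, at 1176, 455 and 1428 CPM against 98.2 to 619 (median 278) (1.83 ± 0.61 (SE)). Fibulins are glycoproteins of elastic fibres and basement membranes, so members of 1 family sat on opposite sides. Collagens had no set direction: 6 of 20 tested members were above 0 and 14 below (median -0.25), and the median within YAP1-MAML2-v2 libraries alone was 0.37. COL1A1 ranged from 952 to 4811 CPM in extra axial tumors and from 723 to 8884 CPM in extra cranial ones.

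Direct targets of YAP1 with TEAD were not uniformly lower: 7 of 22 tested members were above 0 and 15 below (median -0.32). CTGF, the best known of them, stood at 837, 467 and 28.96 CPM against 671 to 5106 (median 2019) and was the sole member below an unadjusted p of 0.05 (-2.78 ± 1.05 (SE)). Its extra axial levels overlap the extra cranial ones through YAP1-MAML2-v2 replicate 2. CYR61, its close relative, was at 334, 2.37 and 445 CPM against 33.7 to 682 (median 374), and the extra axial and extra cranial libraries of YAP1-MAML2-v2 each held both a low and a high value. YAP1 itself followed the construct and not the site. It was at 161 and 142 CPM in extra axial and 140.1 to 174 CPM in extra cranial YAP1-MAML2-v2 tumors. In NLS-2SA-YAP1 tumors it was at 425 CPM in the extra axial tumor and at 528 and 595 CPM in the extra cranial ones. MAML2 was at 30.7 to 128 CPM in YAP1-MAML2-v2 tumors and at 9.89 to 20.9 CPM in NLS-2SA-YAP1 tumors. CDKN2A was listed at 0.198 to 18.2 CPM, which does not check the deletion because which exons the null allele lacks is not stated in the labels. NES, the gene whose promoter drives tv-a, ranged from 5.76 to 106 CPM and overlapped between sites.

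Genes of cell division had higher fitted levels in extra axial tumors, above all in 1 library, with none past the adjusted threshold. Many such genes have promoter elements bound in the cycle: CCAAT boxes, bound by NF-Y, and the cell cycle homology region TTTGAA. Both are marked by capitals, on either strand, in the windows of 3 members that hold both (same build and positions as above).
UBE2C (chr2:164769679-164769978, plus strand): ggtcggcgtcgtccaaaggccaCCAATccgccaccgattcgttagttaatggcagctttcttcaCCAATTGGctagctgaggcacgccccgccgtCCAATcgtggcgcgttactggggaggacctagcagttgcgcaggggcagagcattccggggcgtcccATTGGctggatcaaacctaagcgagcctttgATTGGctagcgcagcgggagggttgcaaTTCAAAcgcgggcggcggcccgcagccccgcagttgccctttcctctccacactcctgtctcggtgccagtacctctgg
CENPA (chr5:30666636-30666935, plus strand): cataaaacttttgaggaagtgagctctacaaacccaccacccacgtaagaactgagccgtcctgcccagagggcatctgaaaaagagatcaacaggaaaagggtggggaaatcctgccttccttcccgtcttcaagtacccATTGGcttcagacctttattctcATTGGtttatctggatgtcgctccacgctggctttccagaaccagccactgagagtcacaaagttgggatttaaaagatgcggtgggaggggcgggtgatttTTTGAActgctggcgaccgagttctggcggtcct
MKI67 (chr7:135716330-135716629, minus strand): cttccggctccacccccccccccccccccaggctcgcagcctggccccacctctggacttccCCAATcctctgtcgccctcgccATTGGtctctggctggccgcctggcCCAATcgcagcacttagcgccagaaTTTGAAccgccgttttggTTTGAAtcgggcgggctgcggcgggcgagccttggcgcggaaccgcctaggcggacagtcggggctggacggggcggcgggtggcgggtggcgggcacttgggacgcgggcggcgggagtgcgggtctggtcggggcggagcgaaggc
Of the mitosis list, 26 of 32 members matched a promoter. TTTGAA was present in 19 of them (73.1%) and CCAAT in 21 (80.8%), against 20.2% and 41.1% of all genes in the promoter table. Of the other mitosis genes named below, the Cenpe window held CCAAT but not TTTGAA and the Birc5 window neither. The windows say nothing of binding in the tumors.

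Every one of the 32 mitosis genes had a fitted difference above 0, where 49.5% of all genes did, with a median of 1.55. At an unadjusted p under 0.05, 7 of them were higher, as were 0.986% of all genes. UBE2C stood at 15.5, 3.56 and 9.23 CPM in the extra axial libraries and at 0.298 to 6.76 (median 2.26) CPM in the extra cranial ones. UBE2C, the ubiquitin-conjugating enzyme of the anaphase-promoting complex, overlapped through extra axial YAP1-MAML2-v2 replicate 6 (2.19 ± 0.86 (SE)). CENPE stood at 37.2, 21.6 and 12.2 CPM in the extra axial libraries and at 1.99 to 16.4 (median 8.14) CPM in the extra cranial ones. CENPE, a kinetochore motor, overlapped through the NLS-2SA-YAP1 tumors of both sites (1.65 ± 0.63 (SE)). MKI67 stood at 110.4, 53.6 and 20.4 CPM in the extra axial libraries and at 5.10 to 45.1 (median 20.7) CPM in the extra cranial ones. MKI67, the usual marker of cycling cells, overlapped through extra axial NLS-2SA-YAP1 replicate 1 (1.60 ± 0.70 (SE)). In each of these genes the highest extra axial level was in YAP1-MAML2-v2 replicate 2. CENPA, the centromere histone, and BIRC5, a chromosome passenger protein, differed by 2.62 ± 1.01 (SE) and 2.05 ± 0.87 (SE). The list's mean log2 CPM was 4.64, 2.80 and 2.85 in the extra axial libraries and -0.70 to 3.07 in the extra cranial ones, and the lowest extra cranial value belongs to YAP1-MAML2-v2 replicate 5. Without single libraries the median ran from 0.57 to 2.05, with the lowest value from leaving out extra axial replicate 2. Within YAP1-MAML2-v2 the median of log2 differences was 2.30, and within NLS-2SA-YAP1 it was 0.19. Of the S phase genes, 28 of 28 tested members were above 0 and 0 below, with a median of 0.66 and none at an unadjusted p under 0.05. Leaving out replicate 2 turned that median to -0.27, and within NLS-2SA-YAP1 it was -0.63. MCM2, a replication helicase subunit, was at 58.7, 12.2 and 12.8 CPM in extra axial and 4.84 to 23.4 (median 12.49) CPM in extra cranial tumors.

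**Figure D3:**
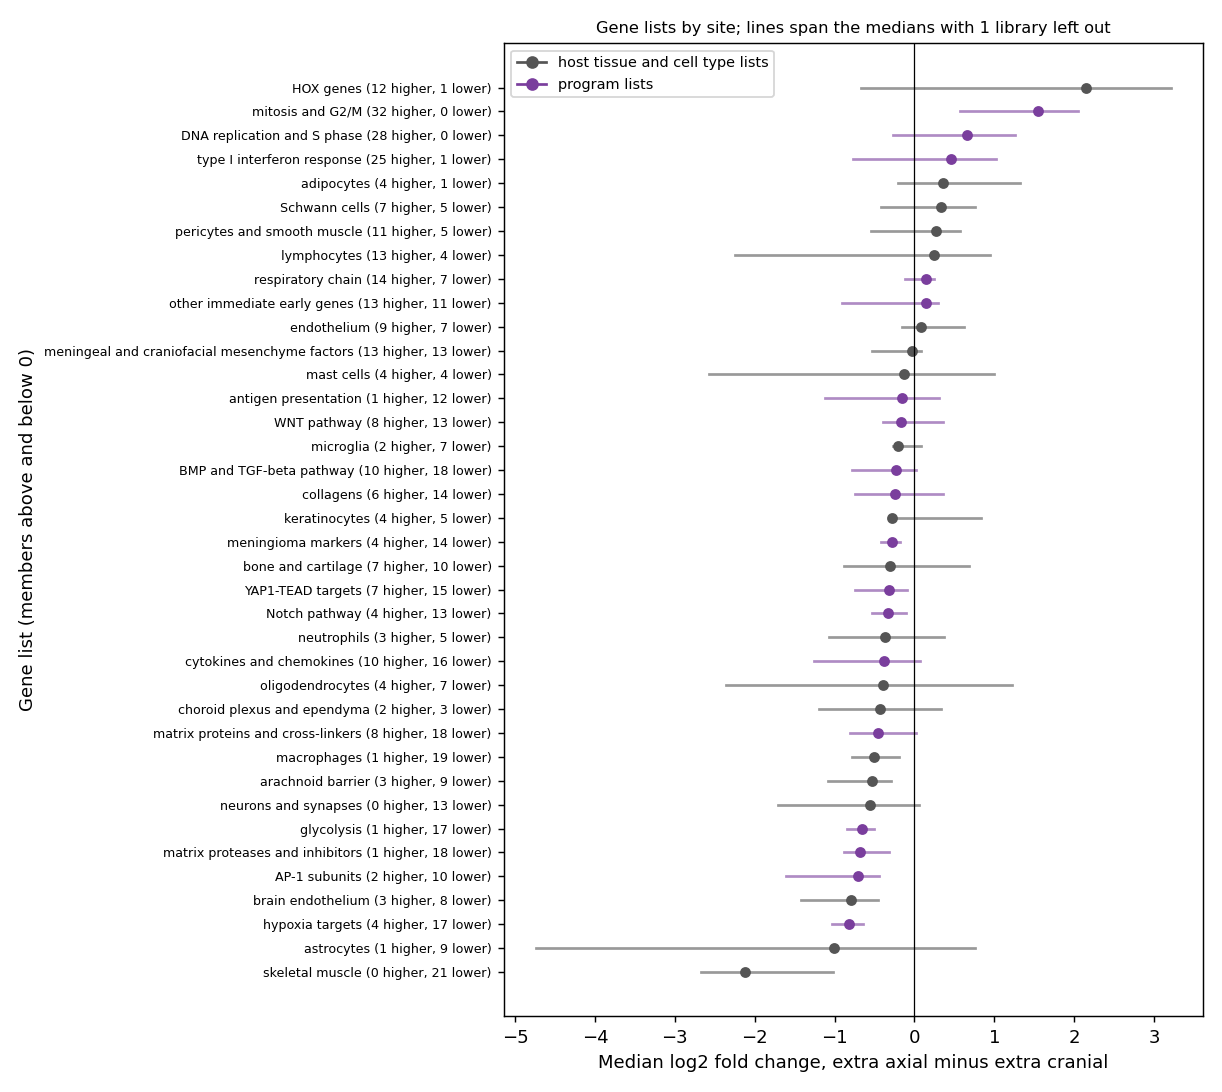
Median log2 fold change (extra axial minus extra cranial) of the tested members of 38 gene lists, with the number of members above and below 0 beside each name; lines span the lowest and highest median when 1 library is left out. Host tissue and cell type lists are grey and program lists purple. Skeletal muscle (median -2.12), hypoxia targets (-0.82) and glycolysis (-0.66) lie below 0 with their whole lines, mitosis genes (1.55) above 0, and the line of the HOX genes crosses 0.

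Among host tissues, the summed level of skeletal muscle genes was high in some extra cranial tumors. The fitted difference was below 0 for all 21 tested muscle genes (median -2.12), for some by next to nothing, 7 reached an unadjusted p under 0.05, and 2 had no overlap between sites. Over all genes, 2.01% were lower at such a p and 0.512% were lower without overlap. Within constructs the muscle median was -0.65 for YAP1-MAML2-v2 and -4.42 for NLS-2SA-YAP1, and it was -1.02 without extra cranial YAP1-MAML2-v2 replicate 3. The 28 listed genes summed to 104, 123 and 22.4 CPM in the extra axial libraries and 46.7 to 844 CPM in the extra cranial ones. The high sums were those of YAP1-MAML2-v2 replicate 3 (412 CPM) and NLS-2SA-YAP1 replicates 2 and 3 (375 and 844 CPM), while the other 3 extra cranial tumors, at 46.7 to 81.9 CPM, lay within the extra axial range. MYL1, a fast muscle myosin light chain, was at 12.2, 19.3 and 54.3 CPM in those 3 libraries and at 0 to 0.199 CPM elsewhere. The defining markers ACTA1 and CKM reached 9.39 and 3.59 CPM, low levels, and MYH4 no more than 0.555 CPM. PVALB, a calcium buffer of fast fibres, was at 0, 0 and 0.822 CPM in extra axial and 0 to 43.7 (median 5.07) CPM in extra cranial tumors. Among these genes, 11 held a value of 0 or 1 in some library, and the median over the other 10 was -1.66. With the mean of these genes as a covariate, the medians of the hypoxia and glycolysis lists were -1.01 and -0.83, against -0.82 and -0.66 without it.

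Defining markers of the brain were at or near 0 at both sites in most tumors. Of tested members, 0 and 13 lay above and below 0 for neurons, 1 and 9 for astrocytes, 4 and 7 for oligodendrocytes, 2 and 7 for microglia, 3 and 8 for brain endothelium and 2 and 3 for choroid plexus and ependyma. The first 3 lists changed direction with construct. Their medians within YAP1-MAML2-v2 and NLS-2SA-YAP1 were -1.08 and 1.58, -2.04 and 1.88, and -1.39 and 2.525. Leaving out single libraries brought them as high as 0.05, 0.76 and 1.22. In each of these lists 6 tested members held a value of 0 or 1. The neuronal markers SNAP25, SYT1, RBFOX3 and STMN2 did not exceed 1.88, 3.50, 0.486 and 0.128 CPM in any library. The neuron list summed to 13.4, 14.1 and 39.8 CPM in the extra axial libraries and 15.4 to 60.2 CPM in the extra cranial ones. The astrocyte genes GFAP and AQP4 were at 0.105, 0.226 and 4.37 and 0, 0 and 0.242 CPM in the extra axial tumors, whereas extra cranial YAP1-MAML2-v2 replicate 3 held 40.3 and 25.8 CPM. That tumor, labelled as outside the skull, thus had the highest levels of these astrocyte genes and also muscle genes. The myelin genes MOG and MOBP did not exceed 1.05 CPM except in extra axial NLS-2SA-YAP1 replicate 1, which had 4.40 CPM of MOG. The choroid plexus markers TTR and KCNJ13 did not exceed 1.26 CPM. Other members of that list were present in some tumors of both sites. CLIC6, a chloride channel family protein, was at 54.00 CPM in 1 extra axial and at 48.7, 94.6 and 189 CPM in 3 extra cranial tumors, and at 0 to 0.03 CPM in the other 5. The folate receptor FOLR1 was at 14.5 and 7.79 CPM in 2 extra axial tumors and at 19.2 CPM in 1 extra cranial tumor, and at 0 to 0.03 CPM elsewhere. FOLR1 was the list's member at an unadjusted p under 0.05 (edgeR adjusted p = 1.00). The microglial genes P2RY12 and TMEM119 overlapped, at 6.96, 2.68 and 0.628 against 0.656 to 6.06 (median 3.71) CPM and 5.15, 4.94 and 21.3 against 2.02 to 22.2 (median 11.04) CPM.

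Meningeal genes did not separate the sites. SLC47A1, an organic cation transporter of the arachnoid barrier, was at 0, 0.0282 and 0 CPM in extra axial tumors. In extra cranial ones it was at 484, 1035, 541 and 5569 CPM in replicates 1 and 3 of YAP1-MAML2-v2 and replicates 2 and 3 of NLS-2SA-YAP1, and at 0 and 0.0331 CPM in the other two. DESeq2 called it, but 5 of its 9 values are 0 or 1, so the size of the difference is not readable. Other arachnoid barrier genes were mixed: 3 of 12 tested members were above 0 and 9 below (median -0.54, and -0.54 over the 6 without a value of 0 or 1). CDH1, the junction protein of that layer, was at 30.96, 633 and 247 CPM against 117 to 880.5 (median 414), and CRABP2, which carries retinoic acid, at 61.9, 17.7 and 310.0 against 0.0284 to 418 (median 294). Factors of meningeal and facial mesenchyme were split evenly, 13 above and 13 below 0 (median -0.03). FOXC1, which meninges need to form, stood at 287, 175 and 944 CPM in extra axial and 187 to 755 (median 265) CPM in extra cranial tumors. ZIC1 stood at 29.3, 237 and 142 CPM against 13.3 to 202 (median 58.2) CPM. HOX genes, which mark cells from behind the head, were low in most tumors, and 1 extra axial tumor stood apart. HOXB3 was at 51.6, 0.254 and 0.338 CPM and HOXB4 at 23.6, 1.64 and 0.653 CPM in extra axial tumors. In extra cranial ones they were at 0.0569 to 1.23 (median 0.289) and 0.0284 to 0.961 (median 0.139) CPM. The list summed to 273, 14.6 and 11.96 CPM in the extra axial libraries and 1.62 to 49.3 CPM in the extra cranial ones, and its median of 2.15 became -0.67 without YAP1-MAML2-v2 replicate 2. Of the 13 HOX genes tested, 11 held a value of 0 or 1, so this median is not a readable fold.

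Immune genes overlapped between the sites. Of the macrophage genes, 1 of 20 tested members were above 0 and 19 below (median -0.50, -0.78 to -0.20 without single libraries), and none reached an unadjusted p under 0.05. Their mean log2 CPM was 5.27, 6.05 and 4.73 in the extra axial libraries and 5.43 to 6.94 in the extra cranial ones, so the sites overlapped. CSF1R, the growth factor receptor of macrophages, was at 119.7, 157 and 109.7 CPM against 141 to 224 (median 182) (-0.49 ± 0.26 (SE)), so the sites overlapped in 1 extra axial tumor. The mannose receptor MRC1 was at 137, 155 and 34.2 CPM against 63.8 to 416 (median 175) (-1.08 ± 0.56 (SE)), and the scavenger receptor CD163 at 198, 283 and 37.7 against 33.9 to 813 (median 190.1). The defining marker CD68 was at most 0.663 CPM in every library, beside these well-detected markers. With muscle genes as a covariate 5 of the 20 macrophage genes were above 0. Interferon response genes depended on the tumor: their mean log2 CPM was 1.92, 6.07 and 5.13 in the extra axial libraries and 4.04 to 5.25 in the extra cranial ones. ISG15, a ubiquitin-like antiviral protein, was at 1.16, 39.7 and 27.8 CPM against 9.13 to 19.7 (median 13.2), and IFIT1 at 2.16, 124 and 62.6 against 24.3 to 65.1 (median 37.6). In both genes extra axial replicate 2 was the lowest of the 9 libraries and replicate 6 the highest. The edgeR median of 0.46 over 26 genes was 1.02 without replicate 2 and -0.77 without replicate 6. Antigen presentation genes showed the same low library, with B2M at 152, 2813 and 1473 CPM against 615 to 2383 (median 1543) and CD74, the class II chaperone, at 152, 1804 and 1169.7 against 458 to 2156 (median 1733) (list median -0.15).

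**Figure D4:**
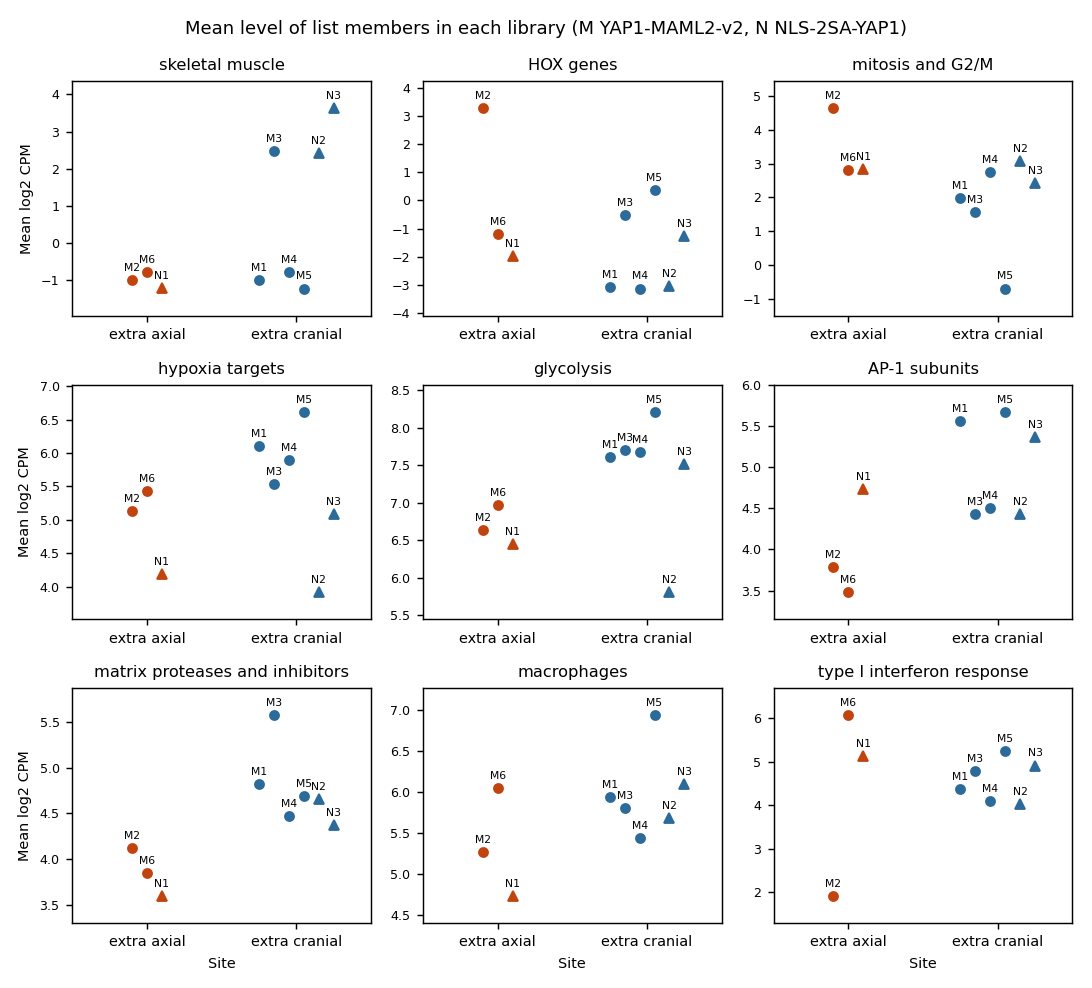
Mean log2 CPM of the tested members of 9 gene lists in each library, by site; red is extra axial and blue extra cranial, circles (M) are YAP1-MAML2-v2, triangles (N) NLS-2SA-YAP1, with replicate numbers. Matrix proteases and inhibitors separate the sites without overlap (3.61 to 4.13 against 4.37 to 5.57), muscle genes are high in M3, N2 and N3, and M2 holds the highest HOX and mitosis means and the lowest interferon mean.

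Most other tissues and programs had members on both sides of 0. The counts above and below 0 were 11 and 5 for pericytes and smooth muscle, 7 and 5 for Schwann cells, 7 and 10 for bone and cartilage, 4 and 5 for keratinocytes and 4 and 1 for adipocytes. The counts were 13 and 4 for lymphocytes, 3 and 5 for neutrophils and 4 and 4 for mast cells. Of pathways, Notch genes had 4 and 13, WNT genes 8 and 13, BMP and TGF-beta genes 10 and 18 and cytokines 10 and 16. Meningioma markers had 4 and 14, with none at an unadjusted p under 0.05. In these lists, only 3 members reached such a p. EGR2, 1 of 12 tested Schwann cell genes, and SMAD7, 1 of 28 tested BMP and TGF-beta genes, were lower. PHEX, an enzyme of bone mineralisation and 1 of 17 tested bone and cartilage genes, was higher, at 1.71, 0.988 and 12.7 CPM against 0.102 to 1.05 (median 0.791). Of all genes tested, 2.01% were lower and 0.986% higher at such a p, so these calls do not mark the lists out. Only 1 of 6 red blood cell genes passed the filter. KRT5, the basal keratin of skin, was 0 in all 9 libraries, and the fat hormone ADIPOQ did not exceed 0.549 CPM.

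Whether the site difference itself depended on the construct was asked with an interaction term. It rests on 1 extra axial NLS-2SA-YAP1 tumor. In edgeR 1 of 13487 genes (0.00741%) passed an adjusted p of 0.05, GABRB2, a subunit of the GABA-A receptor. It was at 19.2 to 31.4 CPM in the 4 extra cranial YAP1-MAML2-v2 tumors and at 12.8 CPM in extra axial NLS-2SA-YAP1 replicate 1, and at 0 to 0.03 CPM in the other 4 libraries. These near-0 values leave its fold unreadable. Without single libraries the number of calls ran from 0 to 3, and was 0 without extra axial YAP1-MAML2-v2 replicate 2 or 6, extra cranial replicate 3, or extra cranial NLS-2SA-YAP1 replicate 2 or 3. DESeq2 called 204 genes, of which 93 hold a value of 0 or 1. CTGF, MKI67, CAPN6 and FBLN2, named above, also had gaps between their within-construct values, and none of these genes passed the edgeR interaction test.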

How the data were processed

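RNA of 10 tumors was sequenced as stranded mRNA libraries, per the labels' protocols. The submitters' processing notes name HTSeq and mm10, without versions. The authors deposited 1 table of whole numbers per library, treated here as estimated counts. Far more genes are at 1 than at 2, as an adjustment that keeps 0 and 1 and rescales other values would leave, but no label or header records one. Totals were therefore not taken as sequencing depth, no counting interval was computed, and no fold is printed for a single gene with a value of 0 or 1. Such genes do enter the medians of gene lists. The tests had been planned for raw counts and were kept on the deposited values.

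The 16895 genes carry human-style symbols, and 15475 (91.6%) match a mouse symbol in capitals in GENCODE M21, the source of coordinates. Paralogs with shared reads may be split, which the files do not show. edgeR 4.0.16 (R 4.3.3) with TMM scaling, filterByExpr (minimum count 10) and robust quasi-likelihood tests compared the sites with construct as a covariate in 9 libraries, and 13487 genes were tested, of which 1546 hold a value of 0 or 1. P-values were adjusted by Benjamini-Hochberg at 0.05. The SE is the absolute log2 fold change over the square root of F. Within-construct differences are of mean log2 CPM with a prior count of 2. DESeq2 1.42.0 and limma 3.58.1 were alternatives, with other scalings, filters and covariates, and each library left out. Scripts were tested on simulated negative binomial counts, which did not model a rescaling of the deposited values.

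Named genes were the 12 of smallest edgeR p per direction whose mean log2 CPM reached 1, with no value of 0 or 1 and the same sign without each library and within each construct. To these were added up to 8 genes per direction called by DESeq2 under the same conditions, up to 4 members of smallest p per list with its defining markers, and YAP1, MAML2, CDKN2A and NES. The 39 lists (21 of host tissues and cells, 18 of programs) hold 784 symbols, of which 771 are in the files and 645 were tested. Members and lists were chosen with earlier results of these data known. Among the list members so named, 1 is not reported here. The intra ventricular library entered no comparison of sites.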

Additional observations from a re-analysis of the deposited data

Results flagged for a closer look

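Of 54 genes checked in the 6 extra cranial tumors, 4 had a lone library, whose gap to its nearest neighbour, as a share of the range of log2 CPM, passed Dixon's critical value. Chance flags about 1 group in 20. FAM20A had a ratio of 0.728, with YAP1-MAML2-v2 replicate 5 lowest at 121 CPM, still above the extra axial tumors. The same library was lowest for BIRC5 (0.726, at 0.166 CPM). NLS-2SA-YAP1 replicate 2 was lowest for the glucose transporter SLC2A1 (0.636, at 4.80 CPM) and for the lactate exporter SLC16A3 (0.691, at 3.67 CPM), so in both genes 1 extra cranial tumor lay below the extra axial range that the others exceeded in SLC2A1.

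GABRB2 passed the test for a site difference that depends on the construct (edgeR interaction adjusted p = 0.0161), a test that rests on 1 extra axial NLS-2SA-YAP1 tumor and gave between 0 and 3 calls without single libraries. The gene was detected in the extra cranial tumors of YAP1-MAML2-v2 and in the extra axial tumor of NLS-2SA-YAP1, and was at or near 0 in the other 4.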

How the results depend on the processing

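The 54 named genes with printed differences kept their direction in all of their 1079 values under other settings. By the rule that chose them, the leading genes and those added from DESeq2 had to do so without each library and within each construct. List members of smallest p were picked from the same data. The kept directions are therefore largely a condition of the choice and no independent check. Among 376 list medians under other settings, 337 kept their direction and moved by less than 1 SD of the extra cranial tumors' list means. Values below are log2 medians or counts, and the cause of each shift was not tested.

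DESeq2 called 17 genes between sites (202 higher and 436 lower at an unadjusted p under 0.05) and 204 for the interaction. Genes higher at such a p were 226 with no filter and 211 with all 10 libraries. Without single libraries, calls between sites were 0 to 1, interaction calls 0 to 3, and genes at an unadjusted p under 0.05 were 74 to 247 higher and 163 to 356 lower.

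Without single libraries, medians ran from -0.665 to 3.21 for HOX genes, -0.268 to 1.25 for S phase, -0.904 to 0.301 for other immediate early genes, -0.805 to 0.0223 for matrix proteins, -0.741 to 0.361 for collagens, -0.773 to 1.02 for interferon response, -1.12 to 0.304 for antigen presentation, -0.534 to 0.0768 for meningeal factors and -0.119 to 0.245 for the respiratory chain. HOX and S phase reversed without extra axial YAP1-MAML2-v2 replicate 2. Other immediate early genes had -0.44 with limma-voom, -0.319 with limma-trend, -0.00598 with a mean level filter, -0.148 without the construct term, -0.0223 in YAP1-MAML2-v2 alone, -0.259 with the muscle covariate and -0.0024 over genes above 1 in every library, the last added after seeing the data. Single-library values for that list were -0.904 without YAP1-MAML2-v2 extra axial replicate 6, and -0.0275, -0.0913 and -0.0998 without NLS-2SA-YAP1 replicates 1, 2 and 3. In YAP1-MAML2-v2 alone, medians were 0.0602 for matrix proteins, 0.366 for collagens and -0.101 for the respiratory chain. The muscle covariate gave 0.648 for collagens and -0.0619 for the respiratory chain. Collagens were at 0.264 without extra cranial replicate 3 and 0.0904 without extra axial replicate 6. The interferon response was -0.212 with limma-trend. Meningeal factors were 0.154 with a mean level filter, 0.22 without the construct term and 0.0504 over genes above 1, and 0.0199, 2.45e-05 and 0.0207 without YAP1-MAML2-v2 replicates 3, 5 and 6. The mean level filter left no HOX gene, and the interaction could not be fitted without NLS-2SA-YAP1 extra axial replicate 1.

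No paired analysis was possible because replicate numbers run within each construct and each is used once. The extra axial group holds 3 tumors, 1 of them of NLS-2SA-YAP1, and the deposited values do not give depth.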

Other observations

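The remaining library, an intra ventricular tumor, belongs to neither site and stood as 1 sample with no test. Markers of neurons, astrocytes and microglia were high in it, whereas oligodendrocyte genes, at 748 CPM, were within the 116 to 1850 CPM of the others. Neuron and synapse genes summed to 639 CPM, against 13.4 to 60.5 CPM in the other 9 tumors. Astrocyte genes summed to 4100 CPM against 72.7 to 380 CPM, and GFAP alone was at 1200 CPM against 0.025 to 40.4 CPM. Microglial genes summed to 1950 CPM against 304 to 543 CPM. The choroid plexus marker TTR was at 0.568 CPM, but the choroid plexus and ependyma list summed to 260 CPM, against 12.8 to 198 CPM. Brain endothelium genes summed to 2230 CPM against 270 to 1640 CPM, and arachnoid barrier genes to 12000 CPM against 950 to 7730 CPM. Sums of endothelium, keratinocyte, neutrophil and mast cell genes also lay above those of the other 9 tumors. Collagens summed to 4900 CPM, below the 8020 to 30900 CPM of the others, and matrix proteases and inhibitors to 1130 CPM, below 1910 to 4240 CPM. Mitosis genes, at 62.5 CPM, were within the range of 36.6 to 1180 CPM. The tumor also had 496 CPM of GABRB2, the gene of the site and construct interaction, and 898 CPM of NECAB1, a neuronal calcium-binding protein.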
